A study of Arabidopsis thaliana with 12 samples.

Results

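Embryos with 3 genome copies usually die in Arabidopsis thaliana when the additional copy comes from the father, and they can survive when that father lacks NRPD1. The rescued embryo, written 3x nrpd1, was set here against the normal diploid embryo, written 2x wt, gene by gene and gene group by gene group. The 2 groups hold 6 of the 12 libraries of the series, 3 libraries each, and 17619 of the 33602 annotated genes were measured well enough in them to be compared. Each library was made from embryos pooled at the torpedo stage, so a library is a pool and not a single embryo.

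The 3x nrpd1 embryos came from a diploid Col-0 wild-type mother crossed with a tetraploid father carrying the nrpd1-3 allele, and the labels put them at 8 days after pollination (DAP). The sources differ on this age, since 1 passage of the study's text has the same embryos at 6 DAP. The 2x wt embryos came from the same kind of mother crossed with a diploid Col-0 father, and they were taken at 6 DAP. The other 2 groups are used only as side values. They are 3x wt embryos, which had a tetraploid wild-type father and were taken at 8 DAP, and 2x nrpd1 embryos, which had a diploid nrpd1-3 father and were taken at 6 DAP. The mother was wild type in all 4 groups, so every embryo received an intact maternal NRPD1 copy, and the tetraploid lines had been made with colchicine. Between 3x nrpd1 and 2x wt the ploidy, the father's allele and, by the labels, the age differed at once, so these 3 differences cannot be told apart in any value below.

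NRPD1 encodes the largest subunit of RNA polymerase IV, the plant enzyme that makes the precursors of the small interfering RNAs that guide DNA methylation to transposons. In a seed with an unbalanced paternal genome the endosperm, the tissue that feeds the embryo, fails to form cell walls, and the embryo arrests. A normal embryo first lays down its body plan, then greens and begins to fill its cells with storage protein and oil under the transcription factors LEC1, LEC2, FUS3 and ABI3, and finally becomes tolerant of drying under abscisic acid (ABA).

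NRPD1 (AT1G63020, chromosome 1 from 23354685 to 23362589 in the TAIR10.1 annotation, which is used for all positions here) measured 3.42, 3.61 and 1.78 RPKM in 3x nrpd1, against 2.69, 2.42 and 2.43 RPKM in 2x wt. The difference was 0.27 (SE 0.23, adjusted p = 0.555) on the log2(RPKM + 0.5) scale, so this transcript did not separate the groups and the genotype rests on the labels. The value covers the whole gene and includes the maternal copy, so it is no check of the allele. Differences below are log2 differences on that scale, 3x nrpd1 minus 2x wt, from limma with p-values adjusted over all 17619 genes. A gene is called higher or lower when its log2 difference passes 1 in size with an adjusted p under 0.05, and its difference is called bounded when the 95% interval lies wholly inside 1 log2 unit on either side of 0.

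Steps between low values give a depth of 7185975 to 11602556 counted reads in the 3x nrpd1 libraries and 9443798 to 13025655 in the 2x wt libraries. The study's own mapped read totals are larger in every library, so this depth holds for what was counted per gene and its absolute size is uncertain. If 1 step is 1 read, a gene with 1000 bp of exon and 3 reads is listed at 0.23 to 0.417 RPKM. The 12 embryo markers summed to 577, 551 and 322 RPKM in 3x nrpd1 and 546, 519 and 506 RPKM in 2x wt and 11 of them in 3x nrpd1 and 12 in 2x wt were at 1 RPKM or more in every library. Of 21 endosperm markers 3 were at that level in both groups, and 2 in 3x nrpd1 and 10 in 2x wt were listed at 0 in every library. The endosperm markers summed to 78.9, 91.3 and 25.8 RPKM in 3x nrpd1 and 71.2, 58.8 and 61.7 RPKM in 2x wt. SUC5, a sucrose transporter, alone had 66.7, 67.6 and 19.2 RPKM in 3x nrpd1 and 65.0, 53.3 and 52.9 RPKM in 2x wt. Of 18 seed coat markers 7 reached 1 RPKM in every library of both groups, and their sums were 243, 256 and 185 RPKM in 3x nrpd1 and 233, 226 and 226 RPKM in 2x wt. The part of these tissues in the results was not tested.

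1 library stood apart from the rest. Replicate 3 of 3x nrpd1 lay 0.561 to 0.601 from the 2x wt libraries as the median absolute log2 difference over 18561 genes, whereas replicates 1 and 2 lay 0.222 to 0.254 from them. The 2x wt libraries lay 0.149 to 0.177 from each other, replicates 1 and 2 of 3x nrpd1 lay 0.170 apart, and the 3x wt libraries lay 0.365 to 0.479 from 2x wt. Without replicate 3 the rescued embryos were thus nearer to 2x wt than any 3x wt library was, and farther from it than the 2x wt libraries were from each other. In replicate 3 the values also followed exon length, with a Spearman coefficient across genes of -0.64 against -0.26 to 0.14 in the other libraries. Its median difference from the 2x wt mean was 0.90 among the shortest genes (median exon length 706 bp) and -0.98 among the longest (3913 bp), on the log2 scale, each group being 1 of 10 equal groups by length. The main counts below are therefore also given without this library.

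**Figure D1:**
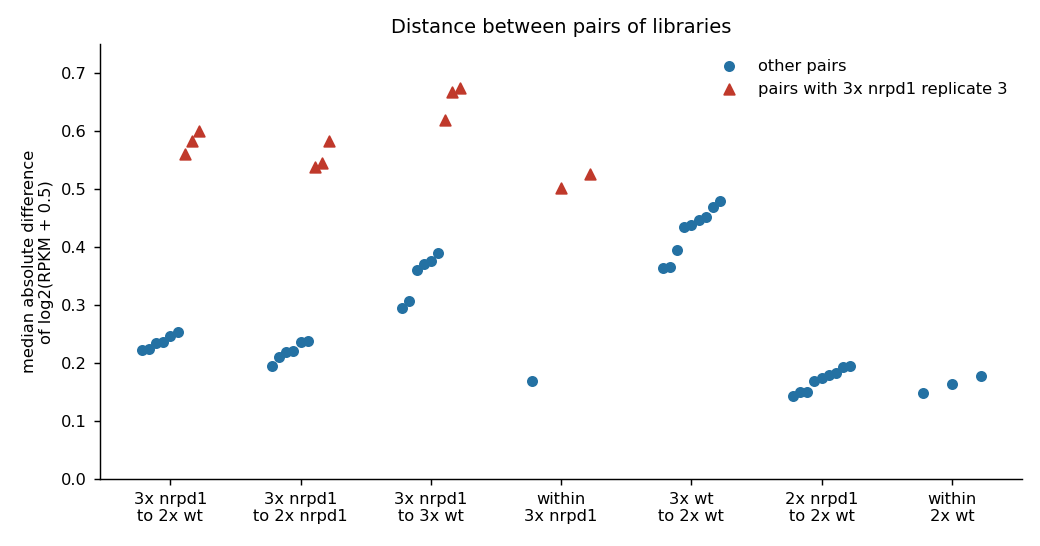
Median absolute difference of log2(RPKM + 0.5) between pairs of libraries (y axis), with each point one pair and the pairs of groups along the x axis, 3x nrpd1 to 2x wt first. Pairs that include replicate 3 of 3x nrpd1 are triangles, and they sit at 0.502 to 0.674 while the other pairs of 3x nrpd1 with 2x wt sit at 0.222 to 0.254.

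**Figure D2:**
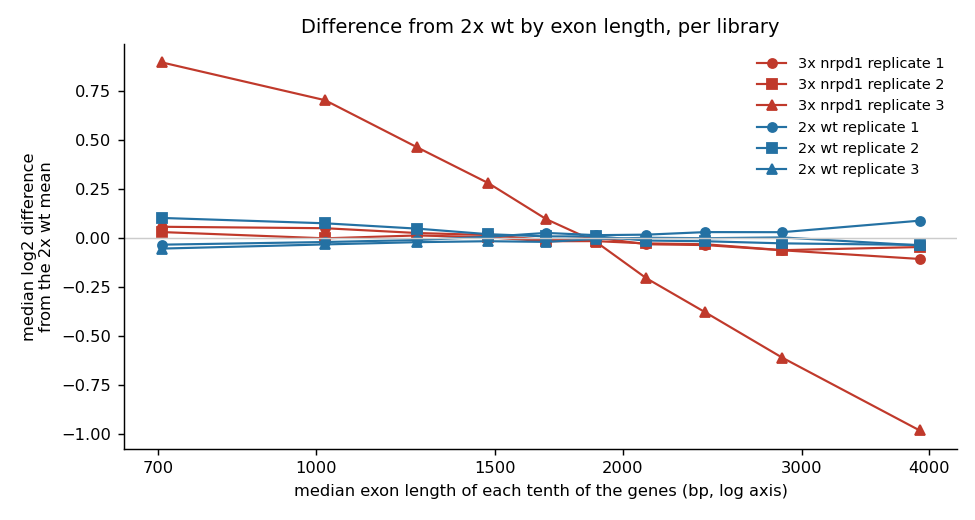
Median log2 difference of each library of the 2 groups from the 2x wt mean (y axis) against exon length (x axis, log) in 10 equal groups of genes, from a median of 706 bp to 3913 bp. Replicate 3 of 3x nrpd1 runs from 0.90 down to -0.98, and the other libraries lie much nearer 0.

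Most of the genes that differed were higher in the rescued embryos. Of 17619 genes, 328 were called higher in 3x nrpd1 (1.86% of those tested) and 39 lower (0.221%), and in all 367 the values of the 2 groups did not overlap. Of the 328, 81 were under 1 RPKM in all 3 libraries of 2x wt. Those 81 entered the test through 3x nrpd1 alone, so the filter fixed their direction. No such count was made for the genes called lower. The difference was bounded for 11553 genes (65.6%), and 5699 genes were neither called nor bounded. Over all genes the median difference was -0.02. At an unadjusted p under 0.05, 1813 genes (10.3%) were higher and 1004 (5.70%) lower in 3x nrpd1. Libraries without overlap were more frequent than calls, with 2597 genes (14.7%) wholly higher and 2465 (14.0%) wholly lower in 3x nrpd1. In the fit of 3x wt against 2x wt, which shares the 2x wt libraries, 1988 genes (11.1% of 17965) were higher and 872 (4.85%) lower in 3x wt.

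The count of calls changed with the libraries used. Without replicate 3 of 3x nrpd1, 441 genes (2.50%) were higher and 89 (0.505%) lower in 3x nrpd1, and the bounded share was 84.6%. Of the 328 and 39 genes called with all libraries, 305 and 37 were called again without it. Without replicate 1 of 3x nrpd1 200 genes were higher and 18 lower, and without its replicate 2 217 were higher and 23 lower. Without 2x wt replicate 1 131 were higher and 15 lower, without its replicate 2 112 and 7, and without its replicate 3 93 and 4. Whichever 1 library was left out, 305 to 327 of the 328 and 37 to 39 of the 39 still passed 1 log2 unit. The median SE was 0.25 to 0.28 in the fits that left out 1 library and gave fewer calls, against 0.23 with all libraries. Genes called higher were short, with a median exon length of 1212 bp against 1779 bp over all genes tested, and 19.3% of them lay under 700 bp against 4.83% of all. With the length trend removed from every library 358 genes were higher and 55 lower in 3x nrpd1, of which 278 and 32 were among the calls made without that step.

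**Figure D3:**
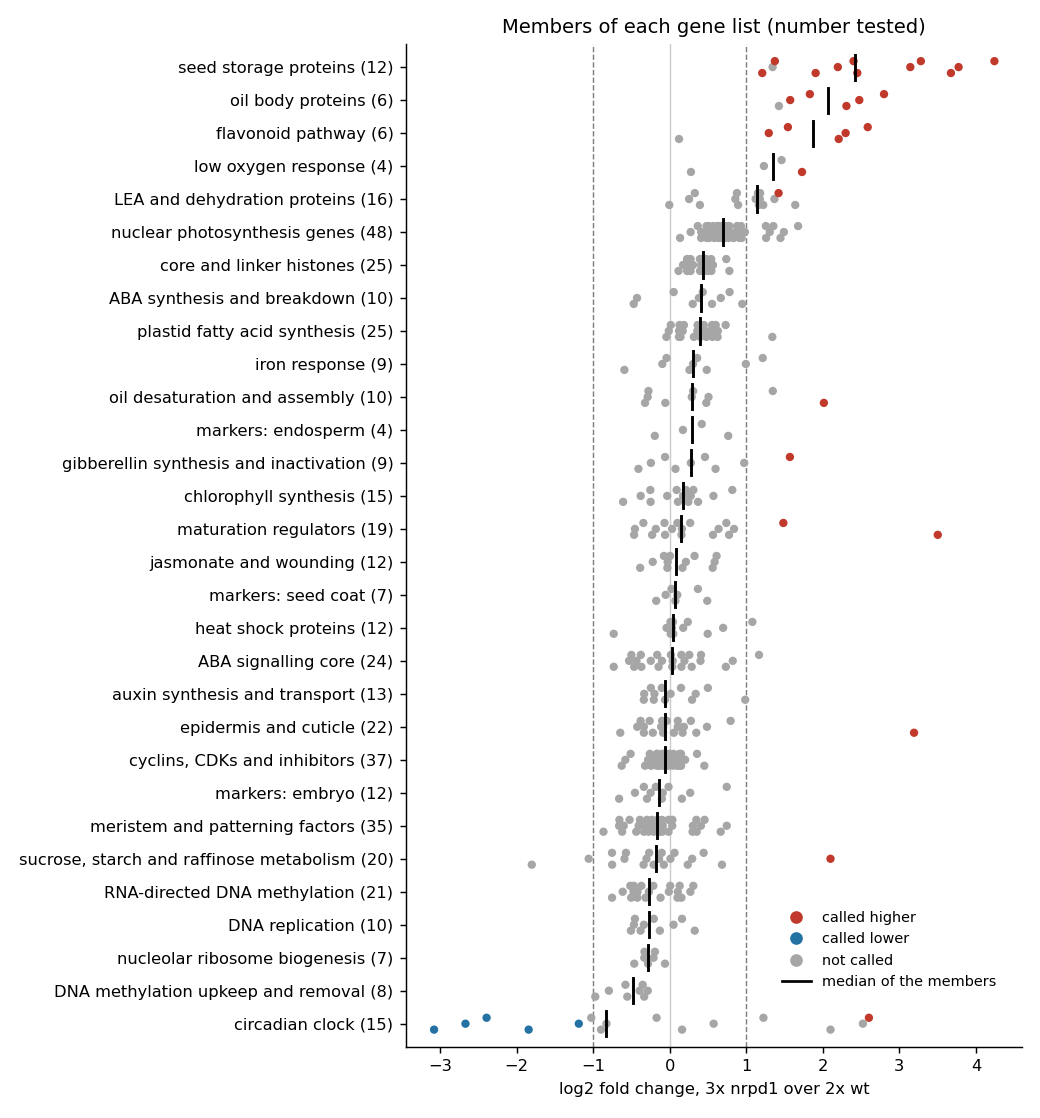
Log2 difference of each tested member of the gene lists by locus, 3x nrpd1 minus 2x wt (x axis). The lists run down the page, with called genes in colour, the median of each list as a bar and dashed lines at the threshold of 1. Genes outside these lists are not drawn. Storage proteins lie around a median of 2.43, oil body proteins around 2.07 and flavonoid genes around 1.88, and the clock genes around -0.83.

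Genes for seed storage proteins had the highest median difference of the gene groups. They include the genes of the 2S albumins and the 12S cruciferins that fill the protein bodies of the seed. The list also holds PAP85, AT2G18540, AT2G28490 and AT4G36700, so its counts and sums are not over albumins and cruciferins alone. Of 12 storage protein genes tested, 11 were higher and 0 lower in 3x nrpd1, against 1.86% and 0.221% of all genes. The 12 had a median difference of 2.43, where the median over all genes was -0.02. All 12 were higher without replicate 3, at a median of 2.19. Their summed level was 2424, 2672 and 2829 RPKM in 3x nrpd1, against 831, 669.8 and 764 RPKM in 2x wt, a ratio of means of 3.50 or 3.37 without replicate 3. The groups did not overlap, and the two-sided exact permutation p was 0.1, the smallest that 3 libraries against 3 allow. In 3x wt the same genes summed to 22117, 32372 and 40565 RPKM, so the rescued embryos lay closer to the diploid sum than to that of 3x wt. In pooled embryos more cells of a type and more RNA per cell cannot be told apart.

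SESA3 (AT4G27160, chromosome 4 from 13611796 to 13612563), a 2S albumin, had 686, 669 and 849.8 RPKM in 3x nrpd1 and 5986, 8576 and 10374 RPKM in 3x wt, against 56.0, 37.7 and 37.0 RPKM in 2x wt. Its log2 difference was 4.24 (SE 0.26, adjusted p = 0.00116). SESA4, its neighbour on the same chromosome, had 52.1, 42.2 and 63.1 RPKM in 3x nrpd1, against 5.53, 3.68 and 3.23 RPKM in 2x wt, a difference of 3.67 (SE 0.29, adjusted p = 0.00163). The albumin genes are close copies of each other, so the split of reads between them is uncertain. Among the 12S globulins CRC (AT4G28520, chromosome 4 from 14087556 to 14089796) had 41.5, 66.7 and 26.1 RPKM in 3x nrpd1, against 6.08, 2.48 and 7.13 RPKM in 2x wt, a difference of 3.14 (SE 0.38, adjusted p = 0.00783). CRB, which encodes cruciferin 2, differed by 3.28 (SE 0.29, adjusted p = 0.00290) with 16.5, 28.1 and 17.8 RPKM in 3x nrpd1, against 2.09, 2.49 and 1.17 RPKM in 2x wt. PAP85, a cupin family protein, had 28.4, 31.9 and 16.3 RPKM in 3x nrpd1, against 1.72, 1.25 and 1.6 RPKM in 2x wt, a difference of 3.77 (SE 0.21, adjusted p = 0.000812). Each of these genes was above every 2x wt library in all 3 libraries of 3x nrpd1.

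**Figure D4:**
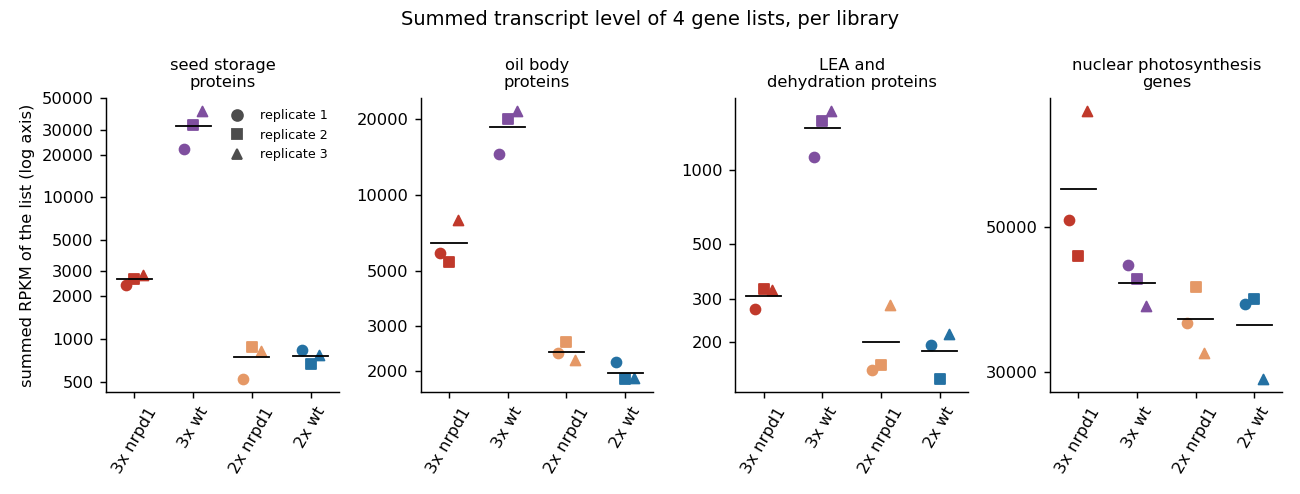
Summed RPKM of storage protein, oil body, LEA and photosynthesis genes in each library (log axes), from 3x nrpd1 at the left over 3x wt and 2x nrpd1 to 2x wt at the right, with bars at the group means. Storage protein sums are 2424 to 2829 RPKM in 3x nrpd1 and 669.8 to 831 RPKM in 2x wt, and the 3x wt storage sums are above both.

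Oil body genes followed with smaller differences. Oleosins and caleosins coat the droplets in which seeds keep oil. Of 6 tested genes 5 were higher and 0 lower in 3x nrpd1, against 1.86% and 0.221% of all genes. The median of the 6 was 2.07, and all 6 were higher without replicate 3 at a median of 1.7. The summed level was 5855, 5425 and 7936 RPKM in 3x nrpd1 and 14510.2, 20062 and 21484 RPKM in 3x wt, against 2161, 1858 and 1876 RPKM in 2x wt. OLEO1 (AT4G25140, chromosome 4 from 12900430 to 12901577), an oleosin, had 1311, 1308 and 1655 RPKM in 3x nrpd1, against 360.4, 252 and 252 RPKM in 2x wt, a difference of 2.48 (SE 0.29, adjusted p = 0.00719). OLEO2 had 969, 904 and 1515 RPKM in 3x nrpd1, against 386, 358 and 298 RPKM in 2x wt, a difference of 1.83 (SE 0.34, adjusted p = 0.0345). CLO1, a caleosin, had 8.76, 11.2 and 19.1 RPKM in 3x nrpd1, against 3.20, 1.95 and 2.09 RPKM in 2x wt, a difference of 2.31 (SE 0.38, adjusted p = 0.0234). AT3G01570, another oleosin gene, had 816, 755 and 1094 RPKM in 3x nrpd1, against 164, 143 and 119 RPKM in 2x wt, a difference of 2.8 (SE 0.29, adjusted p = 0.00419). The ranges of the 2 groups were apart for each of these 4 genes.

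The sequence before the start of several of these genes is shown because storage and oil genes are textbook targets of B3 transcription factors, which read the RY element. The letters searched were CATGCA on both strands (TGCATG on the reverse), in the 250 bases before each annotated gene start, taken from the TAIR10.1 RefSeq genome. They occurred in 11 of 13 storage protein promoters, 8 of 8 oil body promoters and 71 of 317 promoters of protein-coding genes called higher (22.4%). Among all 26711 protein-coding promoters 8.51% held them, and among the 16958 tested 7.21%. Matches overlap where the letters repeat, and SESA3 held 7, SESA4 6, OLEO1 3 and CRC 1. Capitals mark the matches in each 250-base stretch, written 5′ to 3′ on the gene's strand.
SESA3 (chr4:13611546-13611795, plus strand): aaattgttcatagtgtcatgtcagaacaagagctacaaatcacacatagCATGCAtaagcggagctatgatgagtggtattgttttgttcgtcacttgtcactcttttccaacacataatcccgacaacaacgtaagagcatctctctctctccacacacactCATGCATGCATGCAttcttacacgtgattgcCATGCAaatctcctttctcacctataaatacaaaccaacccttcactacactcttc
SESA4 (chr4:13613346-13613595, plus strand): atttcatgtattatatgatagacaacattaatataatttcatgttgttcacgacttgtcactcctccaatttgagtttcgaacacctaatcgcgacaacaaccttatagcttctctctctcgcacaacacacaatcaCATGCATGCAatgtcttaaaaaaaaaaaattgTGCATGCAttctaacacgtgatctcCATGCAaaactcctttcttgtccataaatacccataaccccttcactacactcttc
OLEO1 (chr4:12900180-12900429, plus strand): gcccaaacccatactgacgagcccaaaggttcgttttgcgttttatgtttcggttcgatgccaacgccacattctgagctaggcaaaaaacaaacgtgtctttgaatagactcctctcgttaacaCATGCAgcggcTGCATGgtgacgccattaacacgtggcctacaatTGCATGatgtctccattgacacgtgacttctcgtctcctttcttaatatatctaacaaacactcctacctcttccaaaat
CRC (chr4:14087306-14087555, plus strand): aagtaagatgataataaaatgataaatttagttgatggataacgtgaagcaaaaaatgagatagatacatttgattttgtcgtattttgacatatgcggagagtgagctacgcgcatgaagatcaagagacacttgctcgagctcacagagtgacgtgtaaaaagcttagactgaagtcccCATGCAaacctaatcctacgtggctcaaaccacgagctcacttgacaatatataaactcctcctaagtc

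Among the enzymes that make the oil 1 gene was called. Of 25 genes of plastid fatty acid synthesis 0 were called by limma, where 1.86% of all genes were called higher and 0.221% lower. At an unadjusted limma p under 0.05, 7 were higher and 0 lower, against 10.3% and 5.70% of all genes. In 17 of the 25 all 3x nrpd1 libraries were above 2x wt, against 14.7% of all genes. Of the 25, 16 were bounded and the median was 0.40, and without replicate 3 24 of the 25 were bounded. ACP5, an acyl carrier protein, had 547, 491 and 1059 RPKM in 3x nrpd1, against 291, 318 and 265 RPKM in 2x wt, at a difference of 1.34 (SE 0.39, adjusted p = 0.142), and FAB1, a condensing enzyme of fatty acid synthesis, had 250.1, 239.9 and 133 RPKM in 3x nrpd1, against 245, 230.3 and 217 RPKM in 2x wt. In oil desaturation and assembly 1 of 10 genes was higher. It was FAE1, the condensing enzyme that makes the very long chain fatty acids of seed oil, with 78.2, 71.9 and 61.8 RPKM in 3x nrpd1, against 24.6, 15.2 and 18.6 RPKM in 2x wt, a difference of 2.01 (SE 0.19, adjusted p = 0.00360). PDAT1, which transfers fatty acids onto diacylglycerol, had 6.10, 5.29 and 2.92 RPKM in 3x nrpd1, against 7.69, 5.84 and 6.14 RPKM in 2x wt.

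Genes of the desiccation programme had 1 call. Of 27 genes for LEA and other dehydration proteins, which protect drying cells, 16 reached the level for a test, and 1 was higher and 0 lower in 3x nrpd1, with 4 higher without replicate 3. The median of the 16 was 1.14 with all libraries, and 12 higher and 0 lower had an unadjusted limma p under 0.05, where 10.3% of all genes were higher and 5.70% lower. In 9 of the 16 all 3x nrpd1 libraries were above all 2x wt libraries, against 14.7% of all genes. LEA4-1 had 72.7, 72.1 and 67.4 RPKM in 3x nrpd1, against 31.1, 25.5 and 31.3 RPKM in 2x wt, a difference of 1.42 (SE 0.15, adjusted p = 0.00458). LEA4-5 had 29.2, 55.6 and 51.5 RPKM in 3x nrpd1, against 21.0, 11.6 and 14.8 RPKM in 2x wt, at 1.64 (SE 0.33, adjusted p = 0.0504), and it was called higher without replicate 3 but not with it. RAB18, a dehydrin that ABA induces, had 0.0975, 0 and 0 RPKM in 3x nrpd1 and 24.8, 27.0 and 25.9 RPKM in 3x wt, against 0.269, 0 and 0.240 RPKM in 2x wt, and was too low in the groups compared for a test. EM1, a late embryogenesis protein of group 1, was listed at 0 in all 6 libraries of 3x nrpd1 and 2x wt, and PER1, a seed peroxiredoxin, had 2.36, 2.47 and 2.4 RPKM in 3x nrpd1 and 157, 248 and 276 RPKM in 3x wt, against 0.643, 0.389 and 1.29 RPKM in 2x wt. The LEA sum was 271, 327 and 324 RPKM in 3x nrpd1, 1125, 1588 and 1731 RPKM in 3x wt and 193, 142 and 216 RPKM in 2x wt.

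Among the regulators above these programmes 2 were called. Of 19 tested maturation regulators 2 were higher and 0 lower in 3x nrpd1, where 1.86% of all genes were higher. In 6 of the 19 all 3x nrpd1 libraries lay above 2x wt and in 1 below it, against 14.7% and 14.0% of all genes. Of the 19, 10 were bounded (52.6%, against 65.6% of all genes) and the median was 0.15. Without replicate 3, 15 were bounded, against 84.6% of all genes. The B3 factor gene ABI3 had 185, 169 and 31.5 RPKM in 3x nrpd1, against 153, 149 and 157 RPKM in 2x wt, a difference of -0.45 (SE 0.53, adjusted p = 0.657), so that replicates 1 and 2 lay just above the 2x wt values and replicate 3 far below them. FUS3, another B3 factor, had 61.5, 51.1 and 28.7 RPKM in 3x nrpd1, against 45.0, 36.7 and 54.8 RPKM in 2x wt, and LEC2 had 17.5, 17.3 and 7.61 RPKM in 3x nrpd1, against 16.4, 13.1 and 22.2 RPKM in 2x wt. L1L, a nuclear factor Y subunit close to LEC1, had 407, 338 and 394 RPKM in 3x nrpd1, against 181, 146 and 130.4 RPKM in 2x wt, a difference of 1.48 (SE 0.23, adjusted p = 0.0186). AT4G18650, annotated as a transcription factor-like protein, had 9.06, 11.5 and 8.63 RPKM in 3x nrpd1 and 7.11, 10.8 and 17.2 RPKM in 3x wt, against 0.802, 0.389 and 0.268 RPKM in 2x wt, a difference of 3.50 (SE 0.26, adjusted p = 0.00162). Both were above all 2x wt libraries in every 3x nrpd1 library. AT4G18650, however, was under 1 RPKM in all 3 libraries of 2x wt. It entered the test through 3x nrpd1 alone, so the filter fixed its direction.

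No ABA gene was called in either direction with all libraries. The calls were 0 of 10 genes of ABA synthesis and breakdown and 0 of 24 of the ABA signalling core, with medians of 0.41 and 0.02. Over all genes 1.86% were called higher and 0.221% lower, so lists this short can have 0 calls at those shares. Bounded were 3 of the 10 and 17 of the 24, against 65.6% of all genes. All 3x nrpd1 libraries lay above 2x wt in 3 of the 10 and 5 of the 24, against 14.7% of all genes. They lay below it in 1 and 3, against 14.0%. At an unadjusted limma p under 0.05 the synthesis and breakdown list had 3 higher and 0 lower, and the signalling list 4 higher and 3 lower, against 10.3% and 5.70% of all genes. NCED9, which cleaves the ABA precursor in seeds, had 0.827, 2.8 and 1.05 RPKM in 3x nrpd1 and 8.95, 19.4 and 16.4 RPKM in 3x wt, against 1.48, 0.426 and 0.962 RPKM in 2x wt. ABI5, a bZIP factor of ABA signalling, had 9.47, 14.1 and 6.63 RPKM in 3x nrpd1, against 14, 9.11 and 16.0 RPKM in 2x wt. HAI1, an ABA-induced phosphatase gene, had 111, 152 and 143 RPKM in 3x nrpd1, against 84.2, 56.1 and 62.5 RPKM in 2x wt, a difference of 1.17 (SE 0.24, adjusted p = 0.052), and was the 1 signalling gene called higher without replicate 3. CYP707A2, an enzyme that breaks ABA down, had 0.0436, 0.137 and 0.282 RPKM in 3x nrpd1 and 2.13, 1.89 and 2.29 RPKM in 3x wt, against 0.0802, 0.0389 and 0.0536 RPKM in 2x wt, and was too low for a test.

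The flavonoid pathway was the other group in which most tested members were higher. It makes the pigments and flavonols of seed and seedling from phenylpropanoid precursors. Of 6 genes tested 5 were higher and 0 lower in 3x nrpd1, against 1.86% and 0.221% of all genes. The median of the 6 was 1.88, or 1.80 without replicate 3 with the count at 5 again. TT4 (AT5G13930, chromosome 5 from 4488476 to 4490264), chalcone synthase and the entry enzyme, had 176, 139.5 and 178 RPKM in 3x nrpd1, against 40.3, 39.9 and 30.9 RPKM in 2x wt, a difference of 2.3 (SE 0.23, adjusted p = 0.00404). TT7, flavonoid 3′-hydroxylase, had 55.1, 56.5 and 22.1 RPKM in 3x nrpd1, against 7.99, 6.40 and 7.27 RPKM in 2x wt, a difference of 2.59 (SE 0.27, adjusted p = 0.00458). TT6, flavanone 3-hydroxylase, had 68.5, 66.8 and 57.6 RPKM in 3x nrpd1, against 20.5, 16.2 and 10.3 RPKM in 2x wt, a difference of 2.21 (SE 0.26, adjusted p = 0.00683). FLS1, flavonol synthase, had 59.1, 46.5 and 49.7 RPKM in 3x nrpd1, against 20.9, 22.0 and 15.9 RPKM in 2x wt, a difference of 1.54 (SE 0.20, adjusted p = 0.0105). In all 4 the lowest 3x nrpd1 library was above the highest 2x wt library. CYP98A3, which acts earlier in phenylpropanoid metabolism, had 50.8, 46.6 and 53.4 RPKM in 3x nrpd1, against 16.8, 18.0 and 11.9 RPKM in 2x wt, a difference of 1.84 (SE 0.23, adjusted p = 0.00933). In 3x wt TT4 had 129.6, 139.8 and 119 RPKM and in 2x nrpd1 72.0, 81.9 and 43.9 RPKM, so here the rescued embryos were in the range of 3x wt or above it.

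Clock genes made up part of the short list of lower genes. Of 15 clock genes 5 were lower and 1 higher in 3x nrpd1, at a median of -0.83, and without replicate 3 of 3x nrpd1 5 were lower and 4 higher at -0.32. Over all genes tested 0.221% were called lower and 1.86% higher, or 0.505% and 2.50% without that library. ELF4 (AT2G40080, chromosome 2 from 16734294 to 16734953), a component of the evening complex, had 0.278, 0.437 and 0.450 RPKM in 3x nrpd1, against 3.71, 8.93 and 13.2 RPKM in 2x wt, a difference of -3.08 (SE 0.41, adjusted p = 0.0114). PRR5 (AT5G24470, chromosome 5 from 8356204 to 8358546), a pseudo-response regulator of the day, had 1.07, 0.539 and 0.925 RPKM in 3x nrpd1, against 9.20, 6.77 and 10.8 RPKM in 2x wt, a difference of -2.67 (SE 0.27, adjusted p = 0.00409). FKF1, a blue light receptor that is expressed late in the day, had 1.84, 0.896 and 0.593 RPKM in 3x nrpd1, against 4.65, 7.59 and 15.5 RPKM in 2x wt, a difference of -2.39 (SE 0.42, adjusted p = 0.0305). PRR3 and LUX were also lower, by differences of -1.84 and -1.19, and all 5 genes peak in the afternoon or evening. RVE8, a dawn-phased activator of evening genes, was the gene called higher, with 4.66, 6.93 and 3.13 RPKM in 3x nrpd1, against 0.668, 0.755 and 0 RPKM in 2x wt, a difference of 2.6 (SE 0.40, adjusted p = 0.0186). RVE8 was under 1 RPKM in all 3 libraries of 2x wt, and ELF4 in all 3 of 3x nrpd1. Each of these genes entered the test through the other group alone, so the filter fixed its direction. The hour of collection of the embryos is not given in the sources used here, and its part was not tested.

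These genes also varied inside groups. ELF4 had 1.00, 0.475 and 17.8 RPKM in 2x nrpd1, PRR5 had 3.42, 3.97 and 13.1 and FKF1 3.66, 3.1 and 11.9, so in that group replicate 3 lay in or above the 2x wt range and replicates 1 and 2 below it. In 3x wt PRR5 had 15.3, 19.3 and 14.9 RPKM, above every 2x wt library, while RVE8 had 2.69, 3.24 and 0.922 RPKM. For ELF4 and PRR5 the range inside 2x nrpd1 spanned all 3 values of 2x wt.

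**Figure D5:**
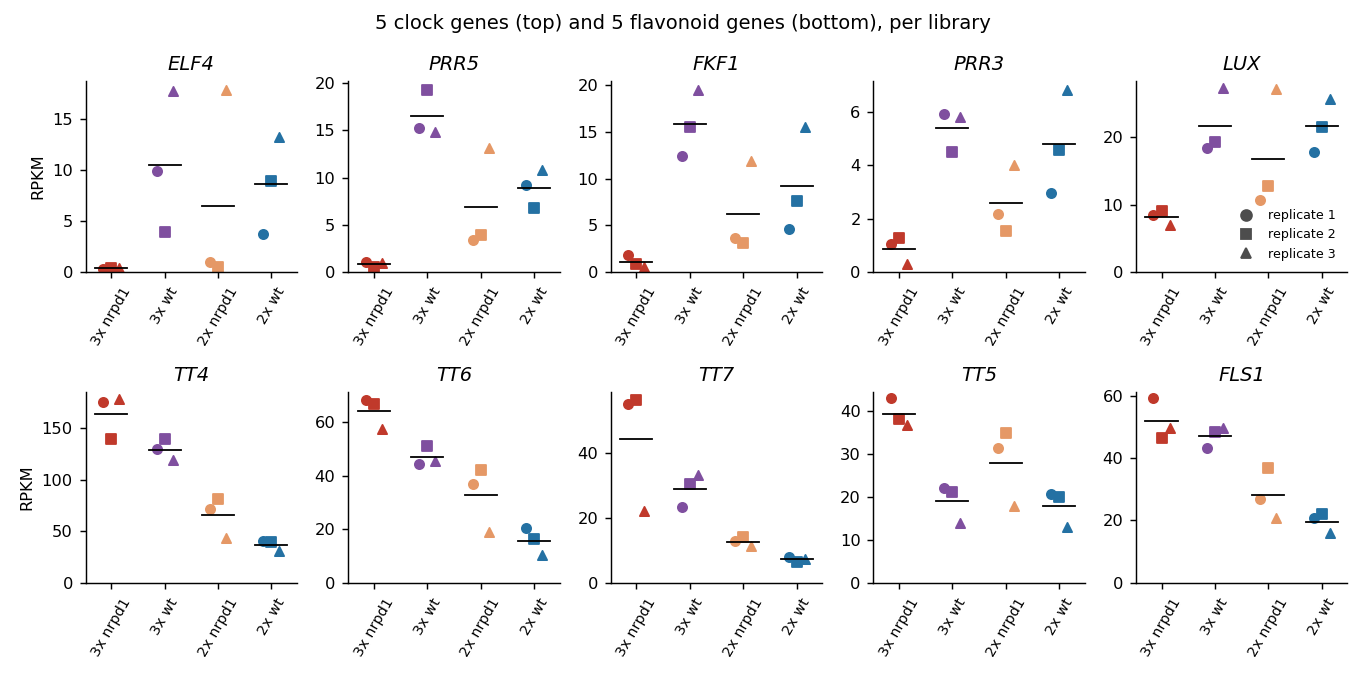
RPKM of 5 clock genes (upper panels) and 5 flavonoid genes (lower panels) in each library, on linear axes from 0, from 3x nrpd1 at the left over 3x wt and 2x nrpd1 to 2x wt at the right. ELF4, PRR5 and FKF1 are lower in all 3 libraries of 3x nrpd1 than in any library of 2x wt, and TT4, TT6 and TT7 are higher.

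The promoters of 3 of the lower clock genes are shown for the evening element, a motif through which clock factors act on evening genes. The letters searched were AAAATATCT on both strands (AGATATTTT on the reverse). They stood in the 250 bases before the start of 3 of the 5 lower clock genes, 4 of all 15 clock genes, 6 of 37 protein-coding genes called lower (16.2%) and 16 of 317 called higher (5.05%), against 2.4% of all 26711 protein-coding promoters and 2.45% of those tested. The RY letters stood in 0 of the 15 clock promoters. Capitals mark the match.
PRR5 (chr5:8358547-8358796, minus strand): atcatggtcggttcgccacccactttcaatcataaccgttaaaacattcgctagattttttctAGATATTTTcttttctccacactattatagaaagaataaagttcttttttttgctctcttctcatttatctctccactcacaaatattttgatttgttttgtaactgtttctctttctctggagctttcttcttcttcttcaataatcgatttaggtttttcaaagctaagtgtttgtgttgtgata
FKF1 (chr1:25508389-25508638, plus strand): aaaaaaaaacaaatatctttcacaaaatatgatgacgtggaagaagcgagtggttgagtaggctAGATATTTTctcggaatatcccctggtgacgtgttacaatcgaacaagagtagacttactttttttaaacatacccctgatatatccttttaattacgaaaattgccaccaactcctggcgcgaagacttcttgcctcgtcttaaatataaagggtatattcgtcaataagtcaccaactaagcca
LUX (chr3:17182792-17183041, plus strand): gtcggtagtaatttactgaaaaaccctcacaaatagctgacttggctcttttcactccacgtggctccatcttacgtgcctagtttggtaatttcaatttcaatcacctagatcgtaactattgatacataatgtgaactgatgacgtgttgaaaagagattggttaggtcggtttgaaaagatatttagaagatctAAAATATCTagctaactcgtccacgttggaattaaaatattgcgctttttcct

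The other genes among the 12 lowest belong to no list by locus. DIN10, a raffinose synthase family gene known from dark and sugar-starved leaves, had 2.43, 1.84 and 0.945 RPKM in 3x nrpd1, against 14, 12.5 and 22.5 RPKM in 2x wt, a difference of -2.79 (SE 0.28, adjusted p = 0.00409). LBD39, a transcription factor that responds to nitrate, had 0.520, 1.36 and 0.699 RPKM in 3x nrpd1 and 1.15, 1.88 and 1.03 RPKM in 3x wt, against 6.05, 5.56 and 5.21 RPKM in 2x wt, a difference of -2.09 (SE 0.27, adjusted p = 0.0104). SPX1, a phosphate sensor whose gene rises on phosphate starvation, had 4.44, 4.73 and 8.97 RPKM in 3x nrpd1, against 44.2, 18.9 and 33.3 RPKM in 2x wt, a difference of -2.14 (SE 0.41, adjusted p = 0.0403). AT5G19120, an aspartyl protease family gene, had 11.2, 11.7 and 7.74 RPKM in 3x nrpd1, against 50.8, 41.9 and 49.8 RPKM in 2x wt, a difference of -2.02 (SE 0.15, adjusted p = 0.00162). In 2x nrpd1 DIN10 had 4.46, 4.02 and 16.2 RPKM and AT5G19120 had 18.3, 21.4 and 50.9 RPKM, again with replicate 3 the highest. AT4G03295, a small nucleolar RNA that poly(A) selection captures poorly, was listed at 0 in all 3 libraries of 3x nrpd1 and had 2.08, 5.05 and 5.57 RPKM in 2x wt. GILT, a lysosomal thiol reductase gene, had 1.06, 1.52 and 0.995 RPKM in 3x nrpd1, against 5.42, 5.88 and 10.6 RPKM in 2x wt, and OXS3, a stress tolerance gene, had 0.191, 0 and 0.463 RPKM in 3x nrpd1, against 2.46, 2.64 and 2.12 RPKM in 2x wt. AT4G03295 and OXS3 entered the test through 2x wt alone, so the filter fixed their direction. The remaining genes among the 12 lowest, AT3G15630 and AT5G21940, differed by -2.15 and -1.86.

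Several of the 12 highest genes were near 0 in 2x wt. MEO (AT2G20160, chromosome 2 from 8699511 to 8700186), annotated as a SKP1-like subunit of a ubiquitin ligase, had 6.28, 13.1 and 9.52 RPKM in 3x nrpd1 and 14.9, 8.73 and 4.51 RPKM in 3x wt, and was listed at 0 in every 2x nrpd1 and 2x wt library. LCR73, a small cysteine-rich peptide gene that overlaps another annotated gene, had 18.4, 30 and 13.2 RPKM in 3x nrpd1 and 19.4, 8.59 and 6.61 RPKM in 3x wt, against 0.652, 0.316 and 0.436 RPKM in 2x wt. The 2x wt values of such genes lie near the worth of a few reads, so their fitted differences depend on the pseudocount. For LCR73 the difference was 4.48 (SE 0.27, adjusted p = 0.00108) with 0.5, and 5.29 with 0.1 and 3.90 with 1. AT1G48195, a zinc finger family gene that also overlaps another gene, had 12.3, 34.8 and 12.4 RPKM in 3x nrpd1, against 0.352, 0.341 and 0.706 RPKM in 2x wt, and AT1G21395, uncharacterised, had 16.1, 51.6 and 19.7 RPKM in 3x nrpd1, against 0.845, 1.43 and 0.565 RPKM in 2x wt. Strand was not marked in these libraries, so reads of overlapping genes cannot be told apart, which also touches OLEO1, OLEO2, AT3G01570, L1L, TT4, TT6, FKF1, DIN10, ERD9, CYP98A3, ACP5, PORB, FIB1, FRO3, RDM1, RAB18, AT3G15630 and AT5G21940. Of 25 tested genes for defensin-like and cysteine-rich peptides, which are secreted, 11 were higher and 0 lower at a median of 1.97, against 1.86% and 0.221% of all genes. Without replicate 3, 15 of the 25 were higher. AT3G17155 had 6.94, 12.5 and 10.2 RPKM in 3x nrpd1, against 0.193, 0 and 0.258 RPKM in 2x wt, and AT3G16895 had 9.73, 24.9 and 12.5 RPKM in 3x nrpd1, against 0, 1.59 and 0.732 RPKM in 2x wt, both of this kind. AT3G63040, an uncharacterised gene that overlaps another, was at a far higher level with 283, 286 and 365 RPKM in 3x nrpd1, against 32.3, 27.2 and 19.3 RPKM in 2x wt, a difference of 3.72 (SE 0.28, adjusted p = 0.00162). Only 25 of the 208 genes of this kind were at a level to be tested, and 6 of the 11 called were under 1 RPKM in all 3 libraries of 2x wt. Such genes entered the test through 3x nrpd1 alone, so their direction was fixed by the filter.

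Lipid transfer proteins, small secreted proteins that carry lipids, had 11 higher and 0 lower of 47 tested at a median of 0.79, and 13 were higher without replicate 3. Of 139 genes of this kind 47 were tested, and 2 of the 11 called entered through 3x nrpd1 alone, being under 1 RPKM in all 3 libraries of 2x wt. LTP3 had 78.6, 101 and 134 RPKM in 3x nrpd1, against 9.42, 6.20 and 8.40 RPKM in 2x wt, a difference of 3.77 (SE 0.29, adjusted p = 0.00162). LTP2, expressed in the epidermis, had 672, 621 and 837 RPKM in 3x nrpd1 and 4492, 7722 and 7517 RPKM in 3x wt, against 94.6, 83.8 and 79.7 RPKM in 2x wt, a difference of 3.19 (SE 0.25, adjusted p = 0.00162). Glutathione S-transferases, which conjugate glutathione to toxic compounds, had 6 higher and 0 lower of 35 tested, and 7 higher without replicate 3. Of 56 such genes 35 were tested, and 3 of the 6 called entered through 3x nrpd1 alone in the same way. GSTU15 had 4.68, 17.0 and 4.83 RPKM in 3x nrpd1, against 0.183, 0 and 0.245 RPKM in 2x wt, and ERD9, another of this family, had 109, 92.2 and 112 RPKM in 3x nrpd1, against 28.4, 26.5 and 14.4 RPKM in 2x wt, a difference of 2.36 (SE 0.30, adjusted p = 0.00987). Among cytochrome P450 genes 4 of 72 were higher and 0 lower in 3x nrpd1, and among peroxidase genes 1 of 12 was higher. Beside these families, 1.86% of all genes tested were called higher and 0.221% lower, or 2.50% and 0.505% without replicate 3.

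AT2G01422 (795 bp of exon, chromosome 2 from 183940 to 184734), annotated as an RNA without a named function, had the highest fitted difference of the genes called, at 4.86 (SE 0.87, adjusted p = 0.0324). It had 36.8, 5.78 and 55.8 RPKM in 3x nrpd1, against 0.199, 1.35 and 0 RPKM in 2x wt, and it varied widely among the 3x nrpd1 libraries. It was listed at 0 in all 3 libraries of 3x wt and had 8.71, 30.2 and 17.0 RPKM in 2x nrpd1. The 6 libraries with an nrpd1 father thus all lay above the 6 with a wild-type father.

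No greening gene passed the test with all libraries, where 1.86% of all genes were called higher and 0.221% lower. Of 48 nuclear photosynthesis genes 0 were called by limma with all libraries, with 24 higher and 0 lower at an unadjusted p under 0.05, against 10.3% and 5.70% of all genes. In 42 of them all 3 libraries of 3x nrpd1 were above all of 2x wt, where 14.7% of all genes were. Their median difference was 0.70, or 0.47 without replicate 3 with 35 bounded and 2 higher. The summed level was 51289.5, 45139.9 and 75054 RPKM in 3x nrpd1 and 38142, 38832 and 29358 RPKM in 2x wt, a ratio of 1.61 that was 1.36 without replicate 3. LHCB1.1, a chlorophyll-binding antenna protein with near-identical copies, had 2709, 2667 and 4313 RPKM in 3x nrpd1, against 1707, 1456 and 537 RPKM in 2x wt, a difference of 1.68 (SE 0.55, adjusted p = 0.192). RBCS1A, a small subunit of Rubisco, had 3592, 3131 and 5211 RPKM in 3x nrpd1, against 2722, 3014 and 2607 RPKM in 2x wt. With the length trend removed the median of the 48 was 0.52, with 1 higher and 28 bounded. Of 15 chlorophyll synthesis genes 0 were called, with 2 higher and 1 lower at an unadjusted p under 0.05, and 11 were bounded, and PORB, which reduces protochlorophyllide, had 272, 213 and 245 RPKM in 3x nrpd1, against 419, 428 and 394 RPKM in 2x wt.

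Body plan and growth genes had 0 calls. At the shares over all genes, 1.86% higher and 0.221% lower, lists of this size hold few calls or none. The bounded share over all genes was 65.6%, near the 65.7% of the meristem and patterning genes. Without replicate 3 the share over all genes was 84.6%. Of 35 tested meristem and patterning genes 0 were called by limma, with 3 higher and 4 lower at an unadjusted p under 0.05 against 10.3% and 5.70% of all genes, and 23 were bounded at a median of -0.16, and without replicate 3 29 were bounded. WOX5, which marks the root quiescent centre, had 7.35, 5.95 and 7.61 RPKM in 3x nrpd1, against 8.35, 7.68 and 17.1 RPKM in 2x wt, and CUC1, which separates the cotyledons, had 3.19, 2.5 and 2.86 RPKM in 3x nrpd1, against 1.71, 1.81 and 1.52 RPKM in 2x wt. PLT2, a root stem cell factor, had 3.83, 4.87 and 1.63 RPKM in 3x nrpd1, against 5.86, 5.79 and 6.00 RPKM in 2x wt. Among cyclins, CDKs and their inhibitors 0 of 37 were called, with 1 higher and 0 lower at an unadjusted p under 0.05, 32 were bounded, and 36 were bounded without replicate 3. CYCB1;1, a mitotic cyclin, had 26, 25.7 and 24.2 RPKM in 3x nrpd1, against 29.7, 27.2 and 32.0 RPKM in 2x wt, a difference of -0.06 (SE 0.14, adjusted p = 0.827). Of 10 replication genes 0 were called, with 0 higher and 0 lower at that p, and 8 were bounded, and MCM5, a helicase subunit, had 40.8, 37.0 and 15.4 RPKM in 3x nrpd1, against 44.9, 42.1 and 50.1 RPKM in 2x wt.

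Genes for making ribosomes had 1 call, where 1.86% of all genes were called higher, 0.221% lower and 65.6% were bounded. Of 7 nucleolar genes 0 were called, with 0 higher and 1 lower at an unadjusted limma p under 0.05 against 10.3% and 5.70% of all genes, and all 7 were bounded at a median of -0.28, or -0.44 without replicate 3, where the median in 3x wt against 2x wt was -1.01. FIB1, the nucleolar methyltransferase fibrillarin, had 377, 373 and 437 RPKM in 3x nrpd1, against 450, 471 and 462 RPKM in 2x wt. CBF5, the pseudouridine synthase of the same compartment, had 251, 207 and 176 RPKM in 3x nrpd1 and 133, 95 and 100.4 RPKM in 3x wt, against 317, 357 and 295 RPKM in 2x wt, below 2x wt in every library of 3x nrpd1. Of 280 cytosolic ribosomal protein genes 1 was higher and 0 lower and 168 were bounded. Their median was 0.17 with all libraries and -0.15 without replicate 3, so its sign rested on that library. The 25 core and linker histone genes had 0 calls, 2 higher and 0 lower at that unadjusted p, 7 bounded with all libraries and 25 without replicate 3.

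The DNA methylation machinery that NRPD1 belongs to had 0 calls. Over all genes 1.86% were called higher and 0.221% lower, so lists this short can have 0 calls at those shares. The bounded share over all genes was 65.6%, or 84.6% without replicate 3. Of 21 genes of RNA-directed DNA methylation 0 were called by limma, with 0 higher and 1 lower at an unadjusted p under 0.05 against 10.3% and 5.70% of all genes, and 16 were bounded at a median of -0.27, and without replicate 3 20 were bounded at -0.00. RDM1, part of the complex that brings RNA polymerase V to DNA, had 34.5, 33.3 and 41.4 RPKM in 3x nrpd1, against 36.5, 32.3 and 29.4 RPKM in 2x wt. KTF1, an elongation factor that binds AGO4, had 28.0, 28.3 and 7.79 RPKM in 3x nrpd1, against 33.4, 31.9 and 40.5 RPKM in 2x wt, with the low value in replicate 3. Of 8 genes for upkeep and removal of methylation 0 were called, with 0 higher and 0 lower at that p, and 3 were bounded with all libraries and 8 without replicate 3. DML2, a demethylase gene, had 27.4, 28.3 and 5.26 RPKM in 3x nrpd1, against 34, 34.8 and 38.9 RPKM in 2x wt, where again replicate 3 alone was far below the other libraries.

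The heat shock, jasmonate and iron lists had 0 calls in the rescued embryos, and the low oxygen list had 1. Of the heat shock genes 0 of 12 were called in 3x nrpd1 at a median of 0.04, and 14 of 15 were higher in 3x wt at a median of 2.76. Of the jasmonate and wounding genes 0 of 12 were called in 3x nrpd1 at 0.09, and 11 of 13 were higher in 3x wt at 1.85. Of the iron response genes 0 of 9 were called in 3x nrpd1 at 0.31, and 8 of 15 were higher in 3x wt at 1.29. At an unadjusted limma p under 0.05 the heat shock genes had 1 higher and 0 lower, the jasmonate genes 2 higher and 0 lower and the iron genes 3 higher and 0 lower in 3x nrpd1, against 10.3% and 5.70% of all genes. Both fits share the 2x wt libraries, and of the 12 heat shock genes only 2 were bounded in 3x nrpd1. Each fit chose its genes on its own libraries, so the 2 counts of a list are not over the same genes. Genes too low for a test in 3x nrpd1 and 2x wt could enter the other fit through 3x wt alone. Over all genes 1.86% were called higher and 0.221% lower in 3x nrpd1, and 11.1% and 4.85% in 3x wt. HSFA2, a heat shock factor, had 11.8, 80.7 and 40.3 RPKM in 3x nrpd1 and 116, 153 and 111 RPKM in 3x wt, against 48.6, 47.6 and 110.1 RPKM in 2x wt. JAZ5, a jasmonate repressor, had 2.59, 5.73 and 3.07 RPKM in 3x nrpd1 and 21.8, 24.9 and 44.4 RPKM in 3x wt, against 7.62, 2.3 and 8.6 RPKM in 2x wt. FRO3, a ferric reductase, had 1.75, 3.21 and 1.29 RPKM in 3x nrpd1 and 22.1, 24.3 and 32.4 RPKM in 3x wt, against 0.768, 0.541 and 0.606 RPKM in 2x wt, and it was called higher in 3x nrpd1 without replicate 3 but not with it. All 4 low oxygen genes were tested in both fits. In 3x nrpd1 1 was higher and 0 lower at a median of 1.35, and in 3x wt 3 were higher at 1.4997. In 3 of the 4 all 3x nrpd1 libraries were above all 2x wt libraries, against 14.7% of all genes. Without replicate 3 of 3x nrpd1 2 were higher at 1.08. PDC1, pyruvate decarboxylase of this list, had 100.1, 117 and 83.7 RPKM in 3x nrpd1 and 74.2, 81.4 and 95.5 RPKM in 3x wt. It had 35.9, 36.3 and 28.0 RPKM in 2x wt. The 3x nrpd1 difference was 1.73 (SE 0.17, adjusted p = 0.00409), above the 2x wt range in every 3x nrpd1 library.

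Other gene groups held single calls. SUS2, a sucrose synthase of the filling seed, had 34.7, 30.6 and 27.4 RPKM in 3x nrpd1, against 8.49, 7.98 and 6.49 RPKM in 2x wt, a difference of 2.1 (SE 0.17, adjusted p = 0.00191), the 1 gene higher of 20 in sucrose, starch and raffinose metabolism. SUC1, a sucrose carrier, had 4.41, 3.28 and 0.647 RPKM in 3x nrpd1, against 9.45, 9.71 and 10.9 RPKM in 2x wt, a difference of -1.80 (SE 0.44, adjusted p = 0.0919), and was called lower without replicate 3. In 2x nrpd1 SUC1 had 3.48, 3.57 and 5.63 RPKM, also below every 2x wt library, and in 3x wt 10.1, 7.09 and 7.46 RPKM. The study lists SUC1 among the genes that differed between 2x nrpd1 and 2x wt. GA20OX3, which makes active gibberellin precursors, had 41.6, 55.5 and 33.3 RPKM in 3x nrpd1, against 15.4, 14.8 and 16.9 RPKM in 2x wt, a difference of 1.57 (SE 0.16, adjusted p = 0.00409), the 1 gene higher of 9 in that group. In cell wall loosening 3 of 63 genes were higher and 0 lower, where over all genes 1.86% were called higher and 0.221% lower. EXPA1, an expansin, had 37.3, 37.3 and 21.2 RPKM in 3x nrpd1, against 13.9, 9.82 and 11.1 RPKM in 2x wt, a difference of 1.55 (SE 0.20, adjusted p = 0.00978). Of 13 auxin genes 0 were called, with 3 higher and 0 lower at an unadjusted limma p under 0.05 against 10.3% and 5.70% of all genes, and 12 were bounded, and of 22 epidermis and cuticle genes 1, LTP2, was higher and 17 were bounded. Among 29 WRKY factors 0 were called, with 1 higher and 2 lower at that p, and 13 were bounded.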

How the data were processed

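Poly(A) mRNA from torpedo-stage Arabidopsis embryos was sequenced without strand marking, 3 pooled libraries in each of 4 groups named by the labels. The deposited files hold RPKM values per gene, and levels are printed as deposited. Per the submitters' processing notes the authors trimmed reads with Trimmomatic and aligned them with TopHat2 to TAIR10. Per the study's methods transcripts were counted with GFOLD, and the step to RPKM is not given in the sources used here. Chloroplast and mitochondrial genes are listed at 0 in all libraries.

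RPKM were scaled by median ratios, genes with at least 1 RPKM in 3 of the 6 libraries were kept, and log2(RPKM + 0.5) was tested with limma 3.58.1 in R 4.3.3 (trend, two-sided, Benjamini-Hochberg over all genes). No count test was run, since RPKM are not counts. Depth was recovered from the steps between low RPKM values. Of genes with up to 30 reads, 24.8% to 34.5% came out whole within 0.002, so the depth is approximate and covers counting error only. The fit was tested on simulated data. The exact permutation test was used for summed levels. Libraries of a group are separate biological replicates per the methods of the study.

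Named genes are the 12 highest and 12 lowest calls, up to 4 members of each list, and genes fixed by name. The members, the 30 lists by locus, the 11 lists by annotation and the motifs were chosen with earlier results of these data known, so they are no independent evidence. PRR3 and LUX, and the promoters printed, were chosen after their values were seen. Names and sequences come from the RefSeq annotation of TAIR10.1. Same-numbered libraries did not deviate together (correlations of -0.00, -0.22 and -0.05), so replicate numbers were not used as pairs. Other filters, pseudocounts, scalings and fits were run as alternatives.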

Additional observations from a re-analysis of the deposited data

How the results depend on the processing

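No gene called in 3x nrpd1 against 2x wt turned its sign under the block, with the length trend removed or without any 1 library. With genes of a mean of at least 5 RPKM, 213 were called, 187 of them higher. With all 12 libraries in one fit, 660 were called, 589 higher and 71 lower. With the replicate number as a block, 216 were called, 194 higher and 22 lower, of which 183 and 20 were called without the block. Leaving out 1 library at a time gave 97 to 530 calls, 93 to 441 higher and 4 to 89 lower, with the extremes without 2x wt replicate 3 and without 3x nrpd1 replicate 3. Named genes lost 24 calls without 2x wt replicate 3 and 0 without 3x nrpd1 replicate 3, and 9 under the block. Without scaling, 255 genes were higher and 41 lower around a median of -0.17, and after quantile normalization 347 and 56 around -0.06. The difference of the storage protein sums was 1886 RPKM as deposited and 2090.8 RPKM after median-ratio scaling. Depth limits the lowest genes, with 41.1% bounded among the 3524 genes of lowest level against 65.6% of all genes.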

Other observations

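Differences were spread over the 5 chromosomes. Chromosome 1 held 88 genes higher and 7 lower in 3x nrpd1 of 4644 tested, chromosome 2 held 51 and 2 of 2670, chromosome 3 held 54 and 9 of 3502, chromosome 4 held 48 and 5 of 2625, and chromosome 5 held 86 and 16 of 4098. The medians per chromosome lay between -0.04 and -0.00 on the log2 scale, and the bounded share lay between 64.0% and 67.7%. Genes for pentatricopeptide repeat proteins, which process organelle RNA, had 0 calls by limma of 253 tested, with 3 higher and 45 lower at an unadjusted p under 0.05, against 10.3% and 5.70% of all genes. In 96 of them all 3x nrpd1 libraries were below 2x wt, against 14.0% of all genes. Their median was -0.39, or -0.24 without replicate 3 of 3x nrpd1, with 135 bounded and 206 bounded without that library.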
